A study of Mus musculus with 2 samples.

Results

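Ccl8-high macrophages of MC38 tumours were taken as cells that expressed the complement genes C1qa, C1qb and C1qc and in which Ccl8 made up at least 0.1% of all transcripts counted. They were 1296 of the 22639 cells of the series that passed the cell filter. A transcript is counted as a unique molecular identifier (UMI). The filter asked for 300 genes or more, 500 UMIs or more and no more than 15% of UMIs from mitochondrial genes. Among these, C1q cells had 0.3% or more of their UMIs in the 3 C1q genes, no UMI of Cd3d, Cd3e or Cd3g, under 1% in S100a8 and S100a9, and fewer than 3 UMIs of the cycling genes Mki67 and Top2a. The comparison cells were the 8420 C1q cells of the same libraries without a Ccl8 UMI, called Ccl8-zero here. Ccl8 and the C1q genes chose the members, so their levels are given as a description.

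The series holds 1 library of each of 2 genotypes, both carrying the floxed Spp1 allele. The control was SPP1fl/fl and the other was SPP1fl/fl-Lyz2-icre, in which Cre recombinase is driven in cells that use the Lyz2 promoter. Spp1 encodes osteopontin, a secreted phosphoprotein made in large amounts by tumour macrophages. MC38 is a mouse colon carcinoma cell line. Tumours were digested, and live CD45-positive leukocytes negative for the dead-cell dye 7-AAD were sorted and run on the 10x 3' (v3) chemistry. The age and number of the mice, the time after tumour injection and the floxed exons were not given in the sources used here. With 1 library per genotype no difference could be tested. The 95% intervals below cover the counting of UMIs or cells, not the spread between mice, and those of UMI sums are too narrow where a few cells hold most of the UMIs.

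Ccl8 (also MCP-2) is a secreted CC chemokine. It lies in a cluster of monocyte chemoattractant genes with Ccl2, Ccl7, Ccl11 and Ccl12. The mouse protein is a ligand of Ccr8, a receptor of regulatory and Th2-type T cells, and in many tissues it is made by resident, scavenging macrophages that stay in place, as opposed to newly arrived monocytes that carry the Ccl2 receptor Ccr2. C1q, Apoe and Mrc1 (the mannose receptor) mark tumour macrophages broadly. Vcam1, Folr2 (folate receptor beta), Stab1, Cbr2, Gas6 and Igf1 are known from resident-type macrophages.

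The promoters of Ccl8 and of its neighbour Ccl12 are shown because these 2 genes of the cluster were high in the same cells. In GENCODE vM21 (mm10) Ccl8 (ENSMUSG00000009185) lies on the plus strand of chromosome 11 from 82115185 to 82116799, and Ccl12 from 82101845 to 82103400. The windows below run from 250 bases before to 50 bases after the RefSeq start (GRCm38.p6, plus strand), chr11:82114935-82115234 for Ccl8 and chr11:82101595-82101894 for Ccl12, with a TATA box (TATAAA) in capitals.
Ccl8: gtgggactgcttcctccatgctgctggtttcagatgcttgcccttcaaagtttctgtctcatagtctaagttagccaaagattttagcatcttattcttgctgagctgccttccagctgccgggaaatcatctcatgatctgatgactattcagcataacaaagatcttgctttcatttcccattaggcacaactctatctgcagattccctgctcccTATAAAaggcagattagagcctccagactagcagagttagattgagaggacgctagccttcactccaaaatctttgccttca
Ccl12: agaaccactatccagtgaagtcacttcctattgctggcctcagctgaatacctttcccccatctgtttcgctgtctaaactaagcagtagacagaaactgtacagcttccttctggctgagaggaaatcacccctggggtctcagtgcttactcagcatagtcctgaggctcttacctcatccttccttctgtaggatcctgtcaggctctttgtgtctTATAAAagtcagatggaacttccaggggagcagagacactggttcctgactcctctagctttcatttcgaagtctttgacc
The TATA box began at -32 of the Ccl8 start and at -31 of the Ccl12 start, and 13.6% of 32544 promoters of this length held these letters on either strand. A global alignment that allowed gaps matched 180 of the 300 bases of each window, and unrelated promoters were not aligned for comparison. The interferon response core (GAAA, any 2 bases, GAAA; 3.45% of promoters), the GAS core (TTC, any 3 bases, GAA; 8.33%), the STAT6 core (TTC, any 4 bases, GAA; 6.98%) and the Maf half-site TGCTGAC (4.65%) had no match in either window, which says only that these letters are absent there.

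The control library kept 8724 of 9154 barcodes and the Lyz2-icre library 13915 of 13944, with 88047097 and 98256831 UMIs and medians of 9379.5 and 6374 UMIs per cell. There were 43 barcodes present in both libraries, and 1 control member and 8 Lyz2-icre members had such a barcode. The 3 C1q genes among the 8 macrophage markers were used by the rule. The 5 others, Adgre1, Csf1r, Mertk, Cd68 and Apoe, were all detected in the members of both libraries, with Csf1r, the receptor for the macrophage growth factor, at 746 CPM (UMIs of a gene per 1000000 UMIs of the group) in the control and 586 CPM in the Lyz2-icre library. The epithelial keratins Krt8, Krt18 and Krt19 and the B cell gene Cd79a had no UMI in the members of either library. Of the epithelial gene Epcam, 1 UMI was found in control members and 10 in those of Lyz2-icre. The B cell gene Cd79b was 20.5 and 9.45 CPM in members and 11.3 and 5.66 CPM in Ccl8-zero cells. Doublets were not called.

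Ccl8-high cells made up a larger share of the tumour leukocytes in the Lyz2-icre library. There were 253 in the control and 1043 in the Lyz2-icre library, 2.90% (Clopper-Pearson interval 2.56 to 3.27) and 7.5% (7.06 to 7.95) of the kept cells, a ratio of 2.58 (2.25 to 2.98). As a share of the C1q cells they were 5.76% of 4395 and 12.7% of 8237, a ratio of 2.20 (1.92 to 2.53). Among the cells with most Ccl8, at 0.3% of UMIs or more, the counts were 63 and 358 cells and the ratio was 3.03 (2.31 to 4.03). When each cell was thinned to 2000 UMIs and the whole rule applied again, 4959 control and 8496 Lyz2-icre cells passed as C1q cells. Of these, 6.67% and 14.2% were Ccl8-high, a ratio of 2.13 (1.89 to 2.41), so the difference was about as large at equal depth. The limits on Cd3, Mki67 and Top2a UMIs are easier to pass at this depth, so these are not the same cells. C1q cells with some Ccl8 but under 0.1% were 21.2% in the control and 24.1% in the Lyz2-icre library, and 73.1% and 63.2% had no Ccl8 UMI.

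**Figure D1:**
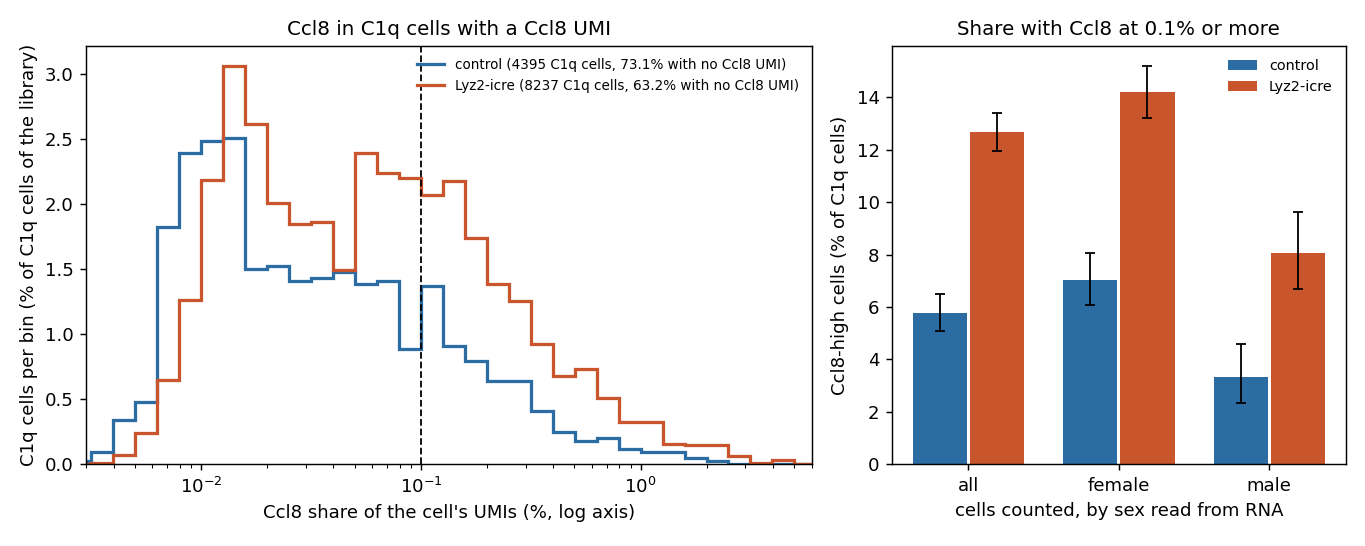
Left, histogram of the Ccl8 share of UMIs (percent, log axis) over C1q cells with a Ccl8 UMI, as a percent of all C1q cells of each library; the dashed line is the 0.1% threshold. Right, percent of C1q cells at or above it, for all cells and by sex, with 95% Clopper-Pearson bars; the Lyz2-icre bar is the higher in each pair (12.7% against 5.76% for all cells).

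The histogram of Ccl8 shares shows that the threshold cuts a continuous range. Just under it, between 0.08% and 0.1%, lay 39 control and 178 Lyz2-icre cells, and just over it, between 0.1% and 0.12%, lay 49 and 139. In the control, Vcam1 was 87.8 CPM just under and 335 CPM just over the threshold, and Folr2 was 73.6 and 106 CPM. In the Lyz2-icre library Vcam1 was 104 and 144 CPM and Folr2 59.6 and 54.3 CPM. The median member had 14 Ccl8 UMIs in the control and 13 in the Lyz2-icre library. The Ccl8 share of the members ran from 0.10% to 2.34% with a median of 0.186% in the control, and from 0.10% to 4.59% with a median of 0.212% in the Lyz2-icre library. Shallow cells pass with few molecules, and 16 control and 43 Lyz2-icre members had a single Ccl8 UMI.

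The members held 50.1% of all Ccl8 UMIs of the kept control cells and 62.9% of those of the Lyz2-icre cells. Their summed Ccl8 level was 2973 and 3863 CPM. Outside the C1q cells, in T cells, NK cells, neutrophils, dendritic cells, monocytes, mast cells or basophils and fibroblast-like cells with little C1q, the level was 6.89 to 37.3 CPM in the control and at most 72.0 CPM in the Lyz2-icre library. After thinning to 2000 UMIs, a Ccl8 UMI was seen in 4.53% of 243 control CD8 T cells (median 5612 UMIs) and 7.55% of 265 in the Lyz2-icre library (median 3705 UMIs). These low shares in cells that should lack the gene are read as background. Ccl8 at 0.1% of UMIs or more was found in 318 kept control cells and 1338 kept Lyz2-icre cells, members included. Of these, 51 and 174 were cycling, 14 and 95 had Cd3 UMIs, and 4 and 41 had too little C1q for the rule. Of the cycling C1q cells, 44 of 1214 (3.62%) in the control and 156 of 1900 (8.21%) in the Lyz2-icre library reached 0.1%.

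Sex was read from RNA, as a Xist UMI without a UMI of 4 Y-linked genes for female and the reverse for male, because both libraries held cells of both sexes. The larger share in the Lyz2-icre library was seen in each sex. Members were 7.02% of female C1q cells in the control and 14.2% in the Lyz2-icre library, a ratio of 2.02 (1.71 to 2.39). They were 3.33% and 8.07% of male C1q cells, a ratio of 2.42 (1.65 to 3.65). Of the members, 183 and 689 were female, 35 and 112 male and 35 and 242 could not be called. The male control members were few, which limits every value for them below.

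Against the Ccl8-zero cells, the members of both libraries carried more RNA of resident-type macrophage genes. A gene is called different here at 1.5-fold or more with a counting interval clear of 1, at 50 CPM and 30 UMIs or more in the higher group. The base is the genes at 10 CPM or more in either group. In the control 172 of 7941 genes were higher (2.17%) and 164 lower (2.07%). In the Lyz2-icre library 117 of 7816 were higher (1.5%) and 59 lower (0.755%). In both libraries 80 of 8121 genes were higher (0.985%) and 44 lower (0.542%).

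Vcam1, an adhesion molecule bound by the integrin VLA-4, had the largest difference that both libraries shared. Its level was 294 CPM in members and 34.4 CPM in Ccl8-zero cells of the control, a ratio of 8.55 (7.71 to 9.47). In the Lyz2-icre library it was 151 and 28.4 CPM, a ratio of 5.29 (4.83 to 5.8). A Vcam1 UMI was present in 38.3% of control members and 5.48% of Ccl8-zero cells at 2000 UMIs, and in 20.9% and 3.56% in the Lyz2-icre library. Gas6, a ligand of the receptors Axl and Mertk for clearing dead cells, was 132 against 24.99 CPM in the control and 92.5 against 17.1 CPM in the Lyz2-icre library. Igf1, insulin-like growth factor 1, was 97.5 against 14.0 CPM and 99.6 against 21.9 CPM. Folr2 was 107 against 25.1 CPM in the control, a ratio of 4.26 (3.64 to 4.96), and 121 against 14.3 CPM in the Lyz2-icre library, a ratio of 8.45 (7.52 to 9.50). All 4 genes had a higher level in members in the female and in the male cells of both libraries. In male cells, however, Folr2 was not called in the control, and Igf1 was not called in either library.

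Other named genes were also higher. Selenop, the secreted selenium carrier, was 1401 against 445 CPM in the control (ratio 3.15) and 925 against 360 CPM in the Lyz2-icre library (2.57). Ccdc152, also higher, overlaps Selenop on the opposite strand, and reads of the 2 genes may not be separable. Stab1, a scavenger receptor, was 542 against 218 CPM and 382 against 158 CPM. Ms4a7, a membrane protein of macrophages, was 858 against 347 CPM and 697 against 283 CPM. Cbr2, carbonyl reductase 2, was 99.96 against 35.0 CPM and 147 against 29.3 CPM. Cd63, a tetraspanin of late endosomes, was 924 against 370.5 CPM and 1016 against 427 CPM. Serpinb6a, Pmp22 and Itsn1 were 2.32 to 3.91 times as high in members in the 2 libraries. Wfdc17 was 636 against 270 CPM and 869 against 308 CPM, but neutrophils held 9272 and 4824 CPM of it, so RNA from those cells was not separable.

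Resident genes were detected in part of the members. At such levels a cell thinned to 2000 UMIs often lacks a UMI by sampling, so these shares do not give the spread over cells. At 2000 UMIs, 65.8% of control and 57.7% of Lyz2-icre members had a UMI of at least 1 of Vcam1, Gas6, Igf1, Folr2 and Cbr2, against 19.0% and 15.5% of Ccl8-zero cells. Cd163 and Lyve1, markers of some resident macrophages, were scarce. Cd163 was 15.5 and 4.34 CPM in control and Lyz2-icre members, and Lyve1 was 4.0 and 2.48 CPM. Timd4 had no UMI in control members, where 3 UMIs would be 1.5 CPM, and 1 UMI in Lyz2-icre members.

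**Figure D2:**
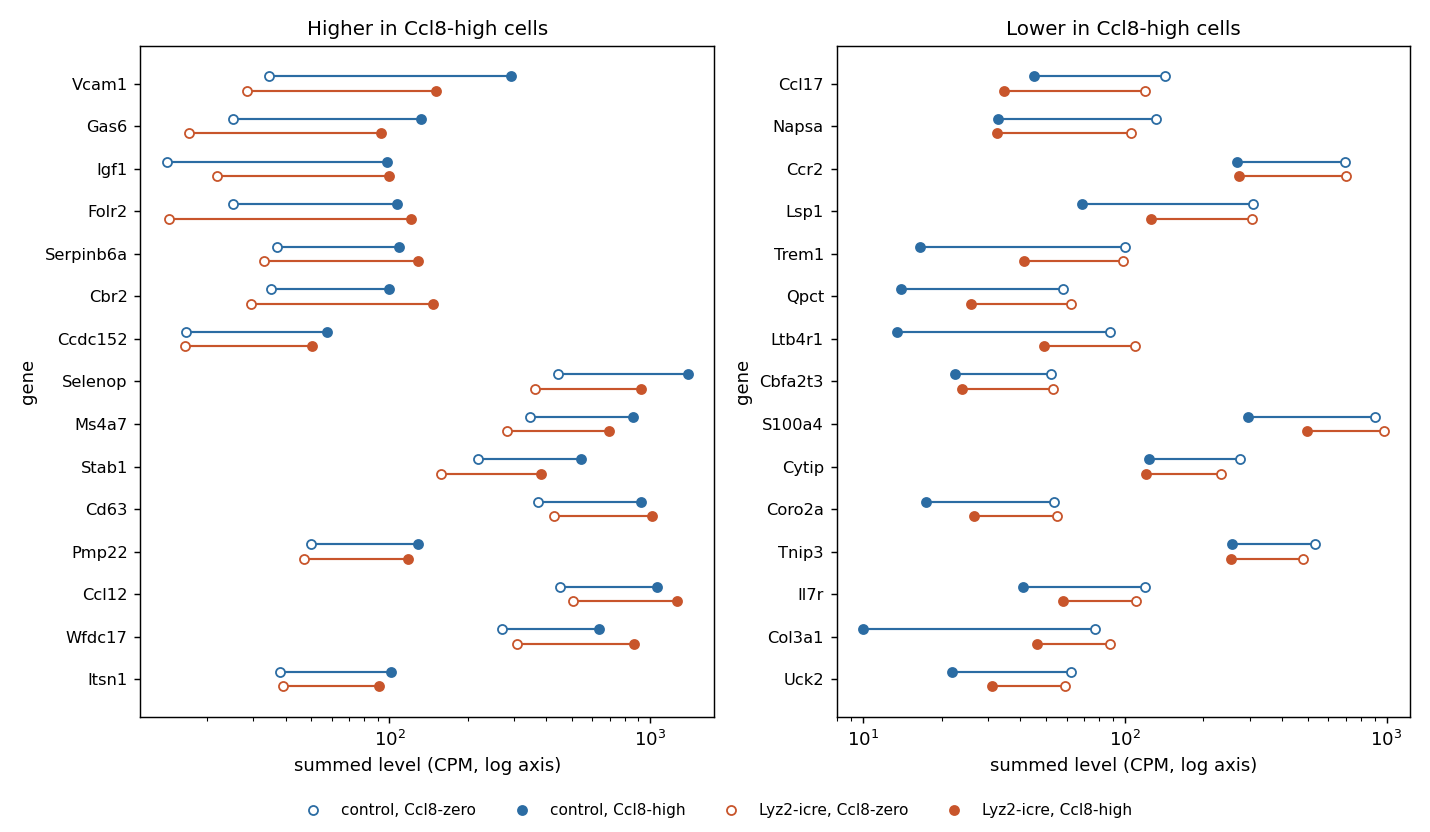
Summed level (CPM, log axis) of the 15 genes named as higher and the 15 named as lower, for Ccl8-zero cells (open) and Ccl8-high cells (filled) of the control (blue) and Lyz2-icre (orange) libraries. Each line joins the 2 groups of a library; Vcam1 spans 34.4 to 294 CPM in the control.

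Ccr2, the receptor of newly arrived monocytes, was lower in the members. Ccr2 was 268 CPM in members and 692 CPM in Ccl8-zero cells of the control, a ratio of 0.388 (0.356 to 0.423). In the Lyz2-icre library it was 274 and 701 CPM, a ratio of 0.391 (0.373 to 0.411). A Ccr2 UMI was present in 28.4% of control and 28.1% of Lyz2-icre members at 2000 UMIs, against 60.9% and 64.0% of Ccl8-zero cells. S100a4, a calcium-binding protein of motile cells, was 297 against 906 CPM and 496 against 982 CPM, with 3152 and 3878 CPM in fibroblast-like cells. Tnip3, an inhibitor of NF-kappaB signalling, was 256 against 533 CPM and 254 against 480.1 CPM. Uck2, a uridine kinase, was 22.0 against 62.3 CPM and 31.3 against 59.1 CPM.

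The other genes named as lower were at far higher levels in another cell group, and the part of RNA from those cells was not tested. Ccl17, a chemokine of dendritic cells, was 45.0 against 143 CPM and 34.7 against 120 CPM, with 1232 and 1166 CPM in migratory dendritic cells. Trem1, an amplifying receptor of neutrophils and monocytes, was 16.5 against 101 CPM and 41.4 against 98.6 CPM. Col3a1, a fibrillar collagen, was 10.00 against 77.1 CPM and 46.2 against 88.0 CPM, while fibroblast-like cells held 14403 and 14138 CPM. Napsa, Lsp1, Qpct, Ltb4r1, Cbfa2t3, Cytip, Coro2a and Il7r had ratios of 0.153 to 0.530.

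The named genes were also followed over the range of Ccl8 in C1q cells. Since they were chosen for their difference between its ends in these same cells, the order is in part set by that choice and is given as a description. Cells were grouped as Ccl8-zero, above 0 and under 0.1%, 0.1% to 0.3%, and 0.3% or more. Of the 15 genes named as higher, 14 increased at every step in the control, Itsn1 being the exception, and 15 in the Lyz2-icre library. Of the 15 named as lower, 11 and 14 decreased at every step, all but Ccr2, Cbfa2t3, Col3a1 and Uck2 in the control and all but Col3a1 in the Lyz2-icre library. Vcam1 was 34.4, 103, 281 and 331 CPM over the 4 groups of the control and 28.4, 64.9, 135 and 176 CPM in the Lyz2-icre library. Folr2 was 25.1, 53.8, 100.2 and 127 CPM, and then 14.3, 33.5, 84.4 and 182 CPM. The members also had more C1q, a median of 1.8% and 1.57% of UMIs against 1.2% and 1.15% in Ccl8-zero cells.

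**Figure D3:**
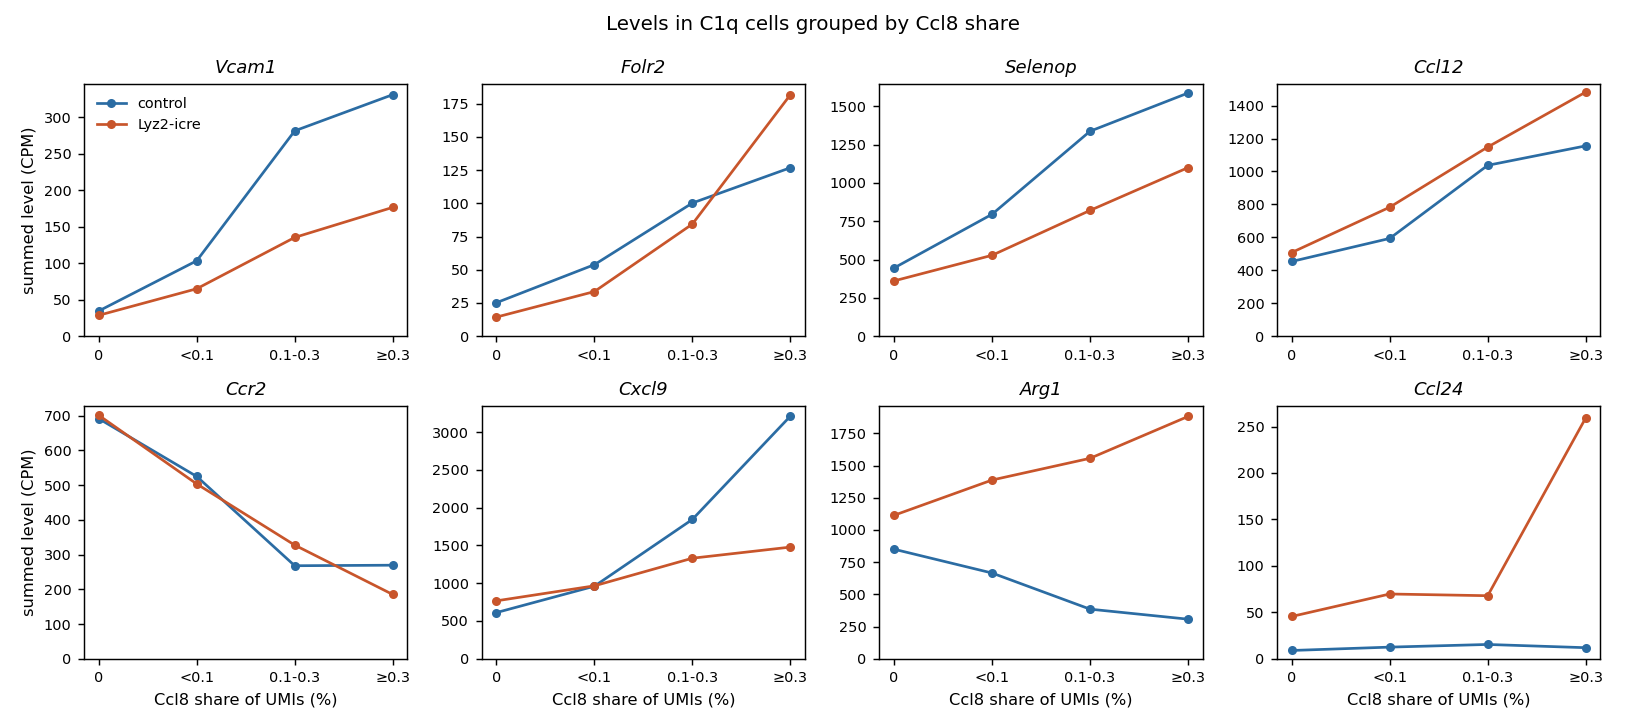
Summed level (CPM) of 8 genes in C1q cells grouped by the Ccl8 share of UMIs, for the control (blue) and Lyz2-icre (orange) libraries. Vcam1, Folr2, Selenop and Ccl12 rise and Ccr2 is lower in both libraries, while Arg1 falls from 850 to 307 CPM in the control and rises from 1114 to 1881 CPM in the Lyz2-icre library.

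Gene lists gave the same outline. Of 25 resident and scavenger genes, 19 were measured in the control, of which 10 were higher in members and 1 lower, with a median log2 ratio (5 CPM added) of 0.84. In the Lyz2-icre library 11 of 17 were higher and 1 lower, with a median of 1.17. Mrc1, F13a1, Maf and Nrp1 were among the higher in both, and Mgl2 was the lower one in both. The median over all measured genes was 0.02 and 0.00. Of the monocytic list, 6 of 10 were lower and none higher in the control (median -1.44), and 6 of 9 lower and none higher in the Lyz2-icre library (-0.74). S100a4, S100a6, F10 and Ccr2 were lower in both.

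Lipid handling and lysosomal genes were higher in part. Apoe, the lipid carrier, was 22299 against 10144 CPM in the control and 17958 against 8495 CPM in the Lyz2-icre library. The lysosomal proteases Ctsb and Ctsd were higher in both libraries, with Ctsb at 2674 against 1357 CPM and 2663 against 1224 CPM. Of the lipid-associated list 5 of 14 were higher in the control, and 6 of 15 were higher and 1 lower in the Lyz2-icre library. Trem2 and Gpnmb were not among them, at 606 against 560 CPM and 15.5 against 10.4 CPM in the control. The Fc receptor genes Fcgr4 and Fcrls and complement C3 were higher in both libraries.

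Interferon-gamma target genes stood higher than in Ccl8-zero cells mainly in the control members. In the control 8 of 16 were called higher (median 0.51), against 2 of 16 in the Lyz2-icre library (median 0.17), and the difference between libraries was not tested. Directly between genotypes, 0 of 16 were higher and 1 lower in Lyz2-icre members (median -0.09). In Ccl8-zero cells 1 was higher and 0 lower (median 0.26). Cxcl9, an interferon-induced T cell attractant, was 2189 against 611 CPM in the control and 1385 against 766 CPM in the Lyz2-icre library. Of 26 measured type I interferon genes 1 (Bst2) was higher in the control and 1 (Ms4a4c) lower in the Lyz2-icre library. No MHC class II or cell cycle gene was called in either library. The rule had removed cells rich in Mki67 and Top2a UMIs from members and Ccl8-zero cells alike. The cell cycle list therefore cannot show whether these groups differ in cycling. Il1b was lower in members of both libraries, at 1211 against 2048 CPM and 851 against 1616 CPM.

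The hypoxia and glycolysis list differed between the libraries, more so in female than in male cells. In the control 12 of 18 genes were lower in members and none higher, with a median of -0.79. In the Lyz2-icre library none of 18 was called in either direction, with a median of -0.03. Female cells had medians of -0.77 (12 lower) in the control and 0.03 (0 lower) in the Lyz2-icre library. Male cells had -0.53 (4 lower) and -0.30 (1 lower), and the difference between the sexes was not tested. Ldha, lactate dehydrogenase A, was 473 against 765 CPM in the control and 914 against 955 CPM in the Lyz2-icre library. Vegfa, the vascular growth factor, was 101 against 196 CPM and 169 against 181 CPM.

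**Figure D4:**
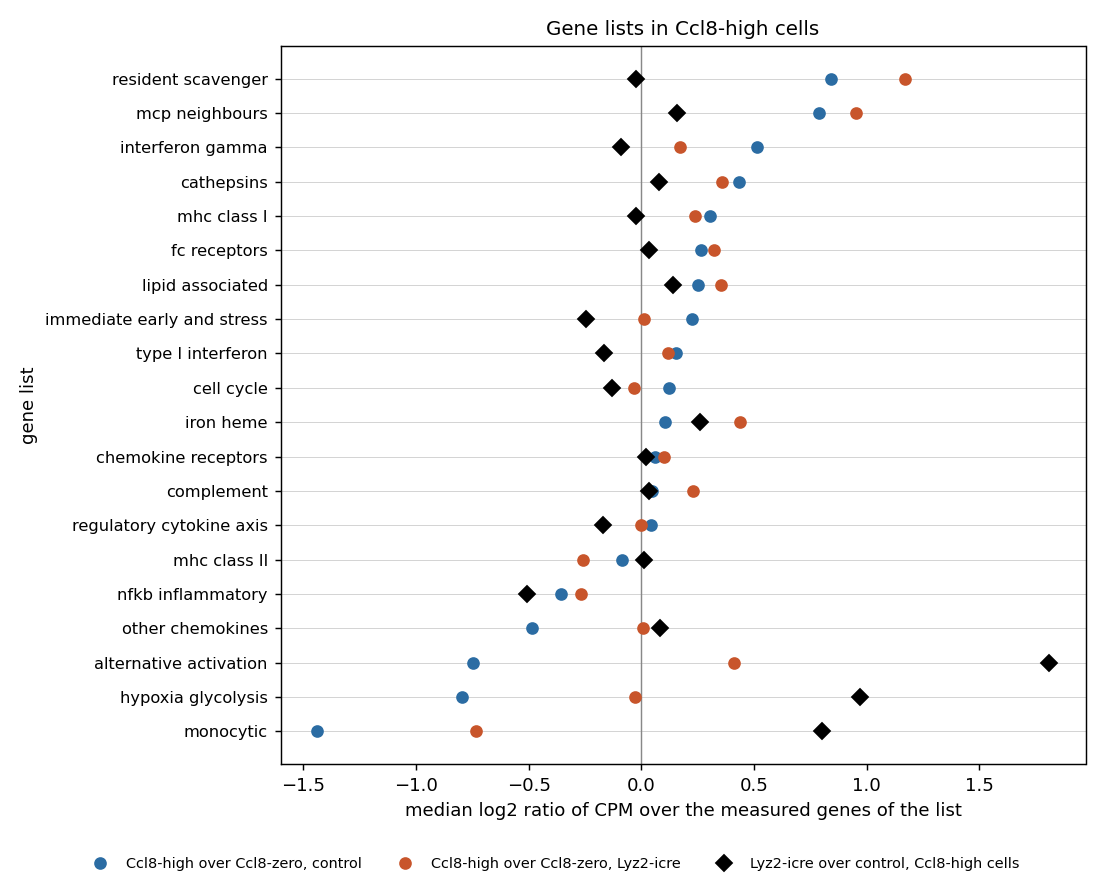
Median log2 ratio of CPM over the measured genes of each list, for Ccl8-high over Ccl8-zero cells in the control (blue circles) and Lyz2-icre (orange circles) libraries and for Lyz2-icre over control in Ccl8-high cells (black diamonds). Resident scavenger genes lie to the right in both libraries (0.84 and 1.17), and hypoxia glycolysis and alternative activation genes lie to the right for the diamonds (0.97 and 1.81).

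Neighbours of Ccl8 in the chemokine cluster were also higher in the members. Ccl12 was 1067 against 453 CPM in the control, a ratio of 2.36 (2.25 to 2.46), and 1273 against 508 CPM in the Lyz2-icre library, a ratio of 2.51 (2.44 to 2.58). Ccl7 was 1445 against 834 CPM, a ratio of 1.73 (1.67 to 1.8), and 1615 against 831 CPM, a ratio of 1.94 (1.90 to 1.99). Ccl2 was 1729 against 1184 CPM and 1596 against 1147 CPM, ratios of 1.46 and 1.39 that stayed under 1.5. Ccl11 was under 10 CPM and was not measured. In the male control cells 0 of the 3 measured neighbours were called higher (median log2 ratio 0.09). Ccl12 was 264 CPM in the 35 male control members and 298 CPM in the Ccl8-zero cells. In the male Lyz2-icre cells Ccl7 alone was called higher.

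Among the receptors, Ccr8 had no UMI in the members of either library, where 3 UMIs would be 1.5 and 0.465 CPM. In T cells it was near the limit of detection, at 12.2 CPM (7 UMIs in 86 cells) in regulatory T cells of the control and 17.1 CPM (5 UMIs in 63 cells) in the Lyz2-icre library. Ccr1 was 232 and 234 CPM in members and 256 and 215 CPM in Ccl8-zero cells.

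The genotype was checked in the members by Spp1. It was 361 CPM (723 UMIs) in control and 2.48 CPM (16 UMIs) in Lyz2-icre members, a ratio of 0.00686 (0.00390 to 0.0112). Control members held less Spp1 than Ccl8-zero cells, which had 767 CPM. At 2000 UMIs an Spp1 UMI was seen in 19.8% of control members and 39.6% of control Ccl8-zero cells, and in 0.454% of Lyz2-icre members. Lyz2, the gene used to drive Cre, was 14502 CPM in the members of the control and 3499.7 CPM in those of the Lyz2-icre library.

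Between the genotypes, the Lyz2-icre members carried more RNA of the alternative activation genes Arg1, Slc7a2, Retnla and Ccl24, of Mmp12 and Fn1, and of hypoxia genes. Of 7950 genes 118 were higher (1.48%) and 80 lower (1.01%) in Lyz2-icre members. In Ccl8-zero cells 13 of 7727 were higher (0.168%) and 42 lower (0.544%). The member groups were smaller, which bears on such counts, and the difference between member and Ccl8-zero cells was not tested.

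Arg1, arginase 1, was 365 CPM in members of the control and 1677 CPM in those of the Lyz2-icre library, a ratio of 4.59 (4.26 to 4.95), while in Ccl8-zero cells it was 850.3 and 1114 CPM. Within the control, Arg1 was lower in members than in Ccl8-zero cells (log2 ratio -1.21), and within the Lyz2-icre library it was higher (0.59). Slc7a2, a transporter of arginine, went the same way, at 61.0 against 150 CPM in the control and 408 against 256 CPM in the Lyz2-icre library. These were the 2 genes called in opposite directions in the 2 libraries, over cells of both sexes together. Within the Lyz2-icre library Arg1 was not called in the female or in the male cells alone. Slc7a2 was called higher there in the female cells only. Cells with Arg1 at 0.1% of UMIs or more were 10.3% of control and 44.8% of Lyz2-icre members, against 20.9% and 32.5% of Ccl8-zero cells.

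Retnla (Fizz1), a secreted protein of interleukin-4-treated macrophages, was 8.5 and 103 CPM in members, but 69 of 1043 Lyz2-icre members had a UMI and the 10 highest cells held 68.7% of them. Ccl24 (eotaxin-2), an eosinophil attractant, was 14.5 and 139 CPM, with 53.6% of the Lyz2-icre UMIs in 10 cells. Mmp12, macrophage elastase, was 41.5 and 356 CPM in members and 333 and 541 CPM in Ccl8-zero cells, so it was lower in members in both libraries. Fn1, fibronectin, was 339 and 1201 CPM in members and 1273 and 1275 CPM in Ccl8-zero cells. F7, Chil3, Ccl6, Bnip3, Adam8 and Ero1a were also named, with log2 ratios of 1.47 to 2.75 in members. Chil3 had a UMI in 92 of 1043 Lyz2-icre members, with 63.6% of its UMIs in the 10 highest cells. F7 had 11 UMIs in 8 control members. Chil3 was 2320 and 1252 CPM in monocytes. Of the hypoxia and glycolysis list 14 of 18 were higher in Lyz2-icre members (median 0.97), and 1 in Ccl8-zero cells (median 0.27).

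The genes named as lower in the Lyz2-icre members included Tnf, an inflammatory cytokine. It was 218 and 89.2 CPM in control and Lyz2-icre members (log2 ratio -1.25). Tmem176a and Tmem176b, paired membrane proteins of myeloid cells, were 484 and 175 CPM and 577 and 219 CPM. Cp, ceruloplasmin, a copper-carrying ferroxidase, was 76.0 and 18.0 CPM. Vcam1, at 294 and 151 CPM, was also lower (-0.94), as was Selenop (-0.60). Stap1, Mir6236, Dusp2, Ccl3, Ccl4, Pou2f2 and Dclre1c had log2 ratios of -1.36 to -1.02. Of the NF-kappaB and inflammatory list, 2 of 11 genes were lower and none higher (median -0.51). Of the other chemokines, 3 of 16 were higher (Ccl6, Ccl9 and Ccl24) and 3 lower (Ccl3, Ccl4 and Cxcl9). Tnf, Ccl3 and Ccl4 were also lower in the Lyz2-icre Ccl8-zero cells, with log2 ratios of -0.65, -0.77 and -0.83, and there 4 of 13 genes of the NF-kappaB list were lower. The resident list, which does not hold Vcam1, had 2 of 19 higher, 1 lower (Selenop) and a median of -0.02.

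**Figure D5:**
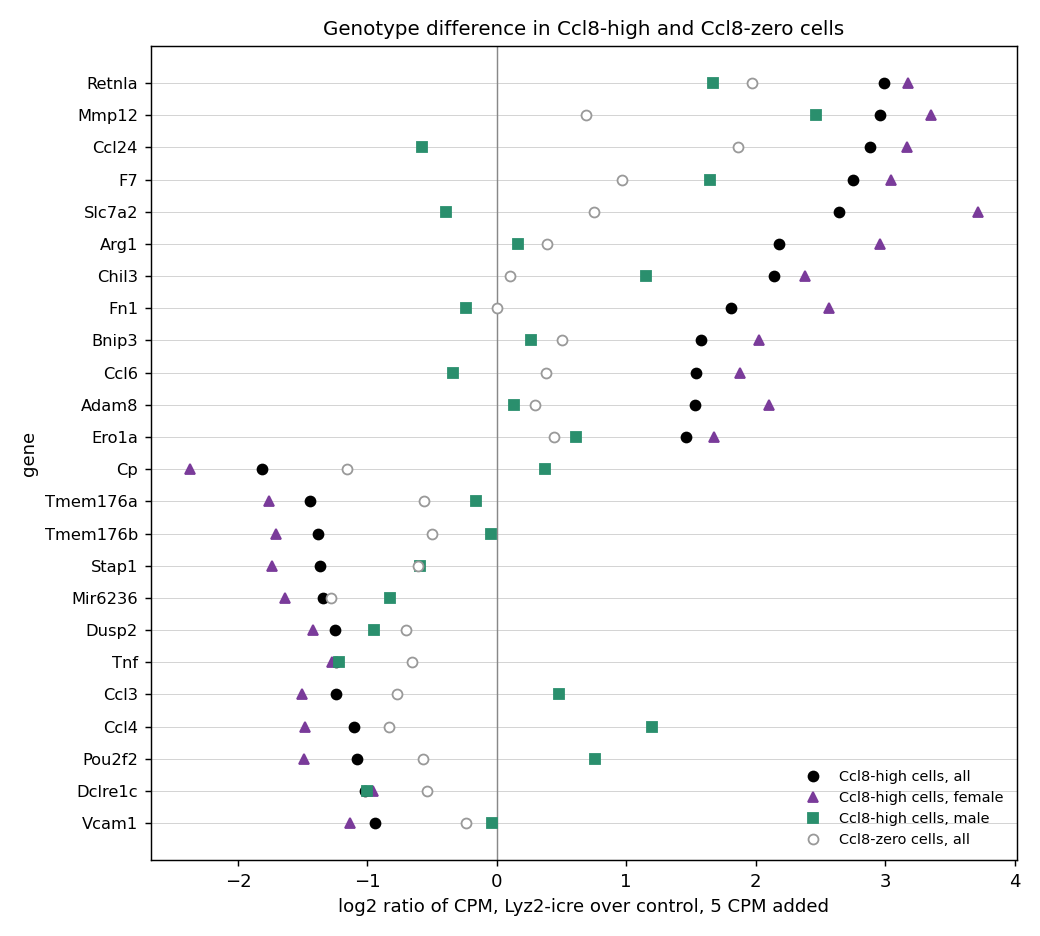
Log2 ratio of CPM (Lyz2-icre over control, 5 CPM added) of the 24 named genes in Ccl8-high cells (black), in female (triangles) and male (squares) Ccl8-high cells, and in Ccl8-zero cells (open circles). Arg1 lies at 2.18 in all members, 2.96 in female and 0.17 in male members and 0.39 in Ccl8-zero cells.

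The genotype ratios of Arg1, Slc7a2 and the hypoxia genes were larger in female than in male members. Arg1 was 250.2 CPM in female control and 1984 CPM in female Lyz2-icre members, and 588 and 660 CPM in male members. Arg1-high cells were 7.10% and 51.7% of female members and 22.9% and 20.5% of male members. In Ccl8-zero cells the same shares were 15.6% and 38% in females and 32.3% and 21.1% in males. Slc7a2 was 33.5 and 500.4 CPM in female members and 146 and 110.2 CPM in male members. The hypoxia and glycolysis list had 16 of 18 genes higher in female members (median 1.43) and 1 higher and 3 lower in male members (median 0.08). Tnf was lower in both, at 205 and 82.0 CPM in females and 239 and 99.6 CPM in males. Vcam1 was 328 and 147 CPM in females and 205 and 200.4 CPM in males. Other lists had more calls in male members. The NF-kappaB and inflammatory list had 7 of 12 genes lower in male members (median -0.84) and 2 of 11 lower and 1 higher in female members (median -0.40). The interferon-gamma list had 7 of 16 genes lower in male members (median -0.59) and 1 lower and 1 higher in female members (median 0.01). In female members 220 of 7997 genes were higher (2.75%) and 177 lower (2.21%), and in male members 146 of 8101 were higher (1.8%) and 149 lower (1.84%). In Ccl8-zero cells the counts were 48 higher (0.617%) and 66 lower (0.848%) in females and 40 higher (0.515%) and 98 lower (1.26%) in males. The difference between the sexes was not tested, and sex cannot be told apart from the mice that supplied the cells.

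The Arg1-high and Arg1-low members of the Lyz2-icre library differed in the resident genes. They also differed in sex, as 356 of 689 female and 23 of 112 male members were Arg1-high. The values that follow are over cells of both sexes, so Arg1 class is not separated from sex in them. The 467 Arg1-high members had 156 CPM of Folr2 and the 576 Arg1-low members 87.1 CPM, whereas Vcam1 was 85.7 and 213 CPM. Slc7a2 was 705 and 122 CPM, Retnla 189 and 19.7 CPM, and Ccl6 1797 and 436 CPM. Tmem176b was 99.97 and 332 CPM and Cxcl9 890.2 and 1860.0 CPM. Apoe was alike, at 17657 and 18246 CPM. In the Arg1-low members of the control, Tmem176b was 631 CPM and Slc7a2 38.4 CPM. Among C1q cells with Arg1 under 0.1% alone, also chosen after seeing the data, the Ccl8-high share was 1.69 times as large in the Lyz2-icre library. Both sides kept Folr2 and Vcam1 above the Ccl8-zero cells of the same Arg1 class, at 20.96 and 10.8 CPM of Folr2 and 14.4 and 35.7 CPM of Vcam1 there. In the control, where 26 members were Arg1-high, Vcam1 did not differ this way, at 349 CPM in Arg1-high and 287 CPM in Arg1-low members.

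Lyz2 itself differed among the Lyz2-icre cells. Of the members, 233 of 1043 had no Lyz2 UMI at full depth (22.3%), against 0 of 253 in the control, which allows a share of up to 1.19% (3 cells of 253). At 2000 UMIs no Lyz2 UMI was found in 45.3% of 605 female Lyz2-icre members and 31.2% of 2578 female Ccl8-zero cells, and in 0.962% of 104 male members. Of female Lyz2-icre C1q cells without a Lyz2 UMI 18.7% were members (16.4 to 21.3), and of those with one 13% (11.9 to 14.1), at medians of 6489 and 6470.5 UMIs. Arg1-high cells were 63.9% of the 194 female members without a Lyz2 UMI and 46.9% of the 495 with one. Arg1 was 2920.2 and 1640.4 CPM, Slc7a2 688 and 431 CPM, Folr2 181 and 126 CPM and Vcam1 137 and 150 CPM in these 2 groups. Arg1 was 250.2 CPM in the female control members. A Lyz2 UMI does not show that a cell made this RNA. At 2000 UMIs, 26.4% of CD8 T cells and 19.6% of NK cells of the Lyz2-icre library had one. The group with a Lyz2 UMI may therefore hold cells that made none. Over cells with a Lyz2 UMI only, a choice made after seeing the data, the ratio of the Ccl8-high share of C1q cells was 2.0 and the log2 ratio of Arg1 between genotypes in members was 1.84.

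Markers of other cell types, apart from Bst2, were low in the members. Bst2, listed for plasmacytoid dendritic cells and also as a type I interferon gene, was 552 and 561 CPM in control and Lyz2-icre members. In Ccl8-zero cells it was 334 and 379 CPM. Some of the other markers differed between the libraries. Summed NK cell markers were 2.0 and 47.7 CPM in control and Lyz2-icre members, against 24.3 and 32.4 CPM in Ccl8-zero cells, led by Gzma (21.5 CPM). Summed neutrophil markers were 132 and 44.8 CPM against 67.7 and 27.6 CPM, and summed fibroblast markers 11.5 and 62.1 CPM against 97.3 and 109 CPM. T cell markers were 1.5 and 7.43 CPM, with the Cd3 genes at 0 by the rule. The median mitochondrial share was 1.91% and 0.880%, close to that of the Ccl8-zero cells of each library (1.64% and 0.799%). Without the cells that held UMIs of other lineages, the ratio of the Ccl8-high share of C1q cells was 2.14, and 131 genes were higher and 90 lower in Lyz2-icre members.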

How the data were processed

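The authors deposited raw UMI counts, whole numbers for each gene and called cell, of 2 libraries. They came from Cell Ranger, per the submitters' processing notes, version 8.0.1 per the file headers, on mm10. The annotation release was not given in the sources used here. Free RNA could not be removed and doublets were not called. UMIs were summed over the cells of a group in each library and divided by the group's total (CPM, Python 3.11.15, numpy 2.4.6, scipy 1.17.1). The 95% interval of a ratio of sums was exact, from the conditional binomial distribution, and that of a share of cells was Clopper-Pearson. Log2 ratios had 5 CPM added. Coverage of the intervals was checked only on independent Poisson counts simulated from summed profiles, which leave out the clustering of UMIs in few cells. Detection was compared after thinning each cell to 2000 UMIs (1 draw), which left out 31 control and 162 Lyz2-icre members. Named genes were the 15 highest and 15 lowest by the smaller of the log2 ratios of the 2 libraries among genes called in both, and the 12 highest and 12 lowest between genotypes, without the genes of the rule. The members, gene lists and rules were chosen with earlier results of these data known. Other thresholds, depths, scalings, filters and single sexes were tried. Sequences came from RefSeq promoter tables (GRCm38.p6), where Ccl8 and Ccl12 matched and Ccl2 and Ccl7 did not. A few genes are not reported here.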

Additional observations from a re-analysis of the deposited data

Results flagged for a closer look

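Arg1 and Slc7a2 moved in opposite directions with Ccl8 in the libraries. Arg1 had a log2 ratio of members over Ccl8-zero cells of -1.21 in the control and 0.59 in the Lyz2-icre library, and Slc7a2 had -1.23 and 0.66. Within the Lyz2-icre library Arg1 was not called in female or male cells alone, and Slc7a2 was called higher in female cells only. The difference between the libraries was not tested.

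The genotype ratio in members (Lyz2-icre over control, log2) was called in opposite directions in female and male cells for 31 genes. The base was 7997 genes in female members, 220 higher and 177 lower, and 8101 in male members, 146 higher and 149 lower. There were 35 male control cells behind the male values, and none of the differences between the sexes was tested. Of the named and listed genes, those higher in female and lower in male Lyz2-icre members included the hypoxia genes Slc2a1, the glucose transporter (1.65 in females and -0.69 in males), Vegfa (1.56 and -0.83) and hexokinase Hk2 (0.57 and -0.60). Il1a (0.60 and -1.90) and the antagonist Il1rn (0.57 and -1.25) of the interleukin-1 family, the checkpoint ligand Cd274 (0.68 and -1.02) and the centromere gene Cenpa (0.55 and -0.81) went the same way. Lower in female and higher in male members were the chemokine Ccl4 (-1.48 and 1.2), the B-cell and monocyte transcription factor Pou2f2 (-1.49 and 0.76), Il10 (-0.86 and 1.03) and Ms4a4c (-0.79 and 0.97). The replication gene Mcm6 (-0.71 and 1.53) and Stmn1 (-0.71 and 0.69) also did.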

How the results depend on the processing

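The Ccl8-high share was higher in the Lyz2-icre library under each setting run. With only cells under 0.1% Arg1, added after seeing the data, its ratio was 1.69 of C1q cells and 1.87 of kept cells; under the other settings it was 2.0 to 2.48 and 2.35 to 2.92. Counts of called genes moved more. Genes higher and lower in Lyz2-icre members numbered 118 and 80, but 220 and 177 in female cells, 146 and 149 in male cells, 171 and 182 by the mean of per-cell CPM and 499 and 546 without the filter on low genes. The lower count was also 154 with Ccl8 at 0.2%, 163 after thinning, 122 between 5000 and 15000 UMIs and 50 with low-Arg1 cells only. Genes higher and lower than in Ccl8-zero cells in both libraries went from 80 and 44 to 242 and 187 without the low filter, which adds genes with few UMIs. In male cells, with 35 control members, the sign turned for Ccl12 in the control (-0.17) and, between genotypes, for Ccl24 (-0.58), Ccl3 (0.48), Ccl4 (1.2), Ccl6 (-0.34), Cp (0.37), Fn1 (-0.24), Pou2f2 (0.76), Slc7a2 (-0.39) and the alternative activation median (-0.32); the cause was not tested. No other direction of a named gene turned. Median-of-ratios scaling shifted the median by at most 0.02. No paired analysis was possible because there was 1 library per genotype. Depth limits the male control members and genes such as Retnla, whose UMIs lay in few cells.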

Other observations

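Of the lipid-associated list, 3 of 15 genes were higher in Lyz2-icre members (Fabp5, Lgals3 and Ctsl) and 1 was lower (Lpl), with a median log2 ratio of 0.14. Of the immediate early and stress list, 0 of 11 were higher and 1 was lower (Jun), with a median of -0.25. Fabp5, a fatty acid binding protein, was 752 and 1656 CPM in control and Lyz2-icre members, with log2 ratios of 1.75 in female and -0.28 in male members. Lgals3, galectin-3, was 1737 and 3071 CPM (1.26 in female and -0.37 in male members). Hmox1, heme oxygenase 1 and the only called gene of 7 in the iron and heme list, was 128 and 215 CPM, and the protease Ctsl 416 and 723 CPM. Lpl, lipoprotein lipase, was lower, at 100.5 and 51.1 CPM. Nos2, the inducible nitric oxide synthase that shares its substrate with arginase, was 11 and 37.3 CPM and stayed under the level set for a call.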
